A study of Mus musculus with 6 samples.

Results

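The genes described here are 10 markers of fat cells, followed heart by heart in a study of caveolin-1. They comprise 3 genes typical of brown fat (Ucp1, Cidea and Slc36a2), 2 typical of white fat (Lep and Retn) and 5 that both kinds of fat use (Adipoq, Cfd, Cidec, Pck1 and Car3). Members were all probe sets that the array's annotation gives exactly 1 symbol, that symbol being one of the 10. This gave 14 of the 45037 non-control probe sets, for 9 of the 10 genes and of the 18193 genes so annotated: 4 for Car3, 3 for Pck1 and 1 for each of the other 7. Cfd was not analysed here, because the annotation used names no probe set for it. The choice of genes did not use their intensities, but it was made with earlier results of these arrays known.

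The samples were 3 hearts of Cav1 knockout mice (Cav1KO) and 3 hearts of wild-type mice (WT), each on 1 Affymetrix array. The Cav1KO hearts carry no replicate number in the labels and are numbered here in order of deposit. All donors were male, 5 to 6 months old and fasted for 6 hours. Cav1 encodes caveolin-1, a membrane protein that adipocytes and endothelial cells hold in large amounts. Strain, the deleted part of the gene and how the hearts were dissected are not given in the labels. Nothing in the labels says outright that each sample is a separate animal, so the p-values speak of the spread among the 6 arrays, part of which may be technical.

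Fat cells store triglyceride in lipid droplets and secrete hormones. White adipocytes hold 1 large droplet and release leptin and, in mice, resistin. Brown adipocytes hold many small droplets and many mitochondria, and the uncoupling protein of those mitochondria turns fuel into heat. In mice, brown and white fat lie close to the heart and the large vessels, and cardiomyocytes themselves also use lipid-handling genes.

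Values are intensities after quantile normalisation, and differences are Cav1KO minus WT in units of log2(intensity + 16). Adding 16 shrinks the differences of dim genes. The test was limma over the 22519 probe sets in the upper 50% by mean, with Benjamini-Hochberg adjustment and a threshold of 0.05. The lowest of these had a mean log2 value of 5.92, an intensity of about 44.6. Summed intensities ran from 11736722 to 12397257 per array, and the number of arrays limits the precision. Cav1 itself averaged 107 ± 9.85 in Cav1KO hearts and 3967 ± 215 in WT hearts (SD, n = 3 each), a difference of -5.02 (SE 0.067, limma adjusted p = 1.66e-09). The 12 cardiomyocyte genes checked were bright and alike in all hearts, with a median range over the 6 hearts of 0.040.

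Ucp1, Adipoq, Car3 and Pck1 varied widely from heart to heart, Retn less so, and Lep was level at the dim end of the arrays. For 8 of the 14 probe sets, 5 of them among the 8 tested, the highest and the lowest heart were at least 1 log2 unit apart. This held for 0.79% of all tested probe sets. Car3 and Pck1 enter these counts with more than 1 probe set each, so the counts are not of separate genes. WT 3 was the highest heart for 12 of the 14, 7 of them among the 8 tested (16.7% of all tested). Cav1KO 1 and Cav1KO 2 were the lowest pair for 13 of the 14, with all 8 tested among them (13.2% of all tested). Cav1KO 3 stood above WT 1 for 7 of the 14 and below it for the other 7. All 14 differences between groups were negative, with a median of -0.60 against -0.0056 over all 45037 non-control probe sets. In a whole tissue, fewer fat cells and less RNA per fat cell cannot be told apart.

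**Figure D1:**
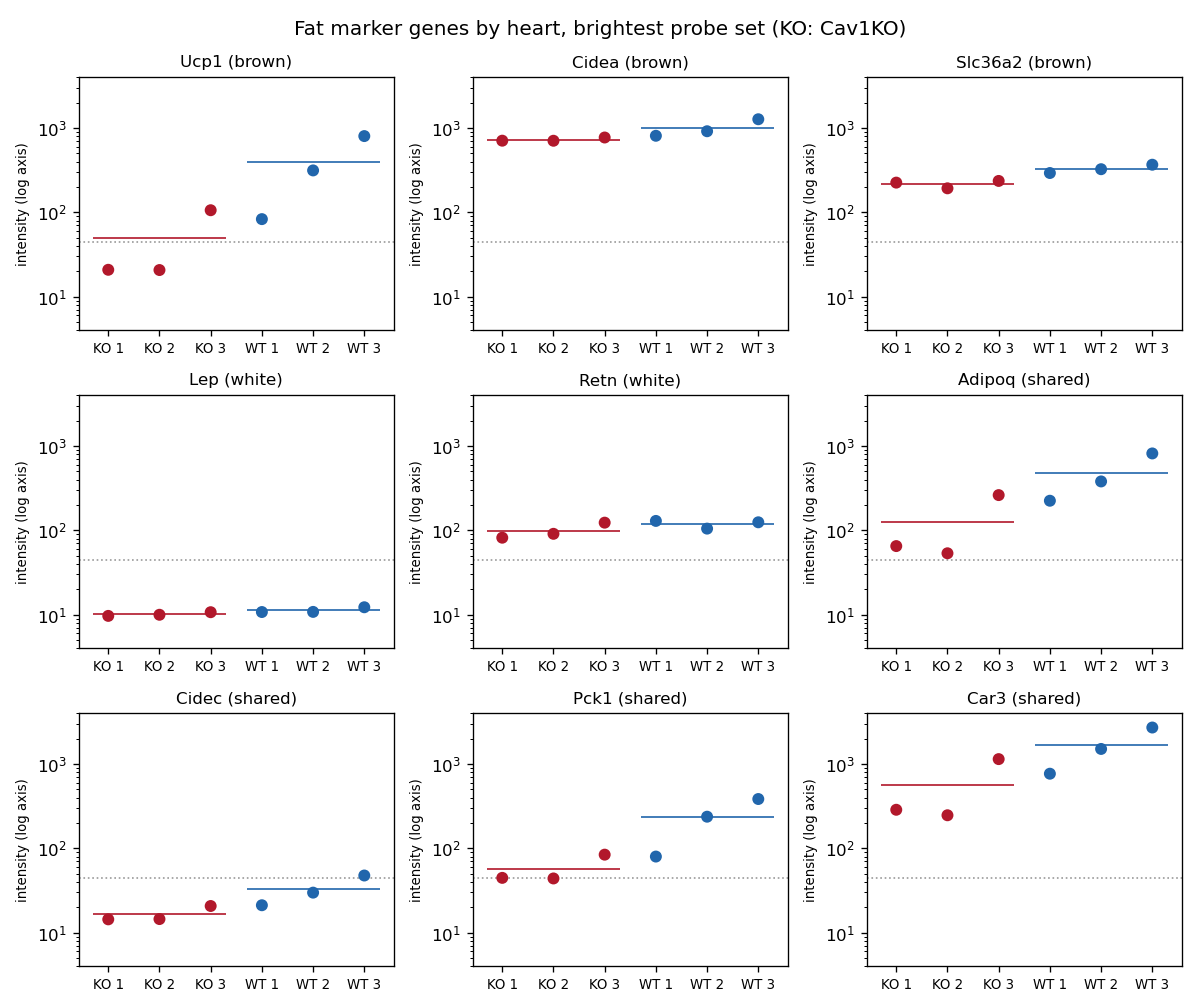
Intensity (log axis) of the brightest probe set of each of the 9 measured genes in the 6 hearts, Cav1KO in red on the left and WT in blue on the right. Points are hearts, lines are group means, and the dotted line at 44.6 is the intensity that corresponds to the lowest mean tested. Ucp1, Adipoq and Car3 spread widely within both groups and Pck1 within WT hearts, Retn spreads less, and Lep is level far below the dotted line.

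**Figure D2:**
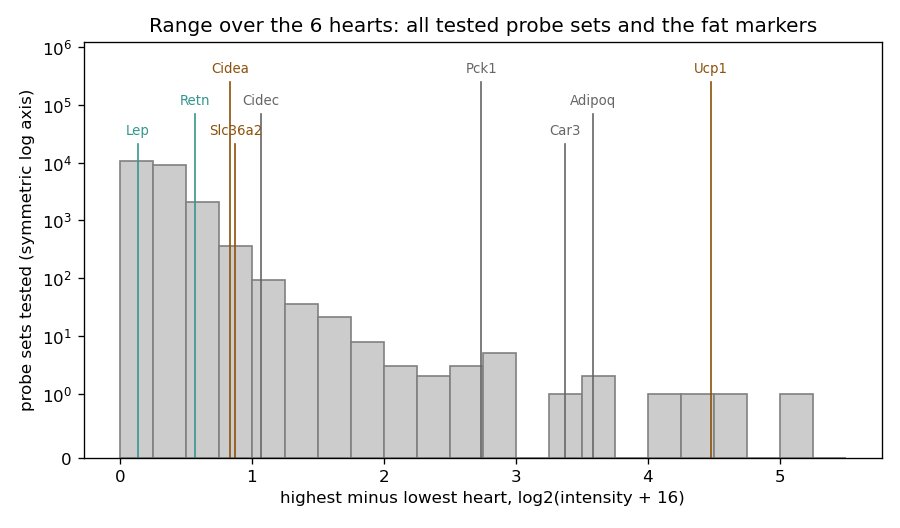
Difference between the highest and the lowest heart (log2 units, x axis) for all tested probe sets as grey bars (number of probe sets, symmetric log axis), with the brightest probe set of each fat marker as a labelled line, brown, green or grey for brown, white and shared genes. Ucp1 at 4.48, Adipoq at 3.58 and Car3 at 3.37 lie in the far tail, and Lep at 0.14 lies in the bulk.

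Ucp1, the mitochondrial uncoupling protein that defines thermogenic fat, varied most. Its intensities were 20.9, 20.7 and 106 in Cav1KO hearts, against 83.2, 314 and 802 in WT hearts. Cav1KO 1 and Cav1KO 2 were low, Cav1KO 3 lay above WT 1, and WT 3 was highest, so the groups overlapped. Within the WT group, WT 3 stood 9.64-fold above WT 1, while Cav1KO 1 and Cav1KO 2 were too dim for a fold to be given against them. Its range over the 6 hearts, 4.48 log2 units, was the 3rd widest of all 45037 non-control probe sets. The difference between group means was -2.45 (SE 0.71, 95% interval -4.04 to -0.85), and it did not pass (limma adjusted p = 0.107). It passed without WT 1 (-3.27, limma adjusted p = 0.0368). It was -1.73 without WT 3 (limma adjusted p = 0.244). The Cav1KO mean lay below the lowest mean tested, so this probe set entered the test through its WT level.

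Cidea, a droplet protein of brown adipocytes, showed the same order of WT hearts over a range of 0.83 log2 units, narrower than that of Ucp1 but at percentile 98.4 of all tested probe sets. It stood at 708, 706 and 772 in Cav1KO hearts, against 809, 915 and 1270 in WT hearts. The groups did not overlap, and WT 3 was highest. The difference was -0.42 (SE 0.14, limma adjusted p = 0.140) and did not pass. The highest heart stood 1.80-fold above the lowest, so Cidea was bright in the hearts where Ucp1 was low.

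Slc36a2, an amino acid transporter used as a surface marker of brown and beige adipocytes, was the only member past the threshold. It stood at 225, 193 and 236 in Cav1KO hearts, against 293, 325 and 367 in WT hearts. Like Cidea, it was above the lowest mean tested in Cav1KO 1 and Cav1KO 2, where Ucp1 stood at 20.9 and 20.7. For Slc36a2 every Cav1KO heart lay below every WT heart, whereas for Ucp1 Cav1KO 3 lay above WT 1. The range of Slc36a2 within each group was smaller than the difference between them, at 0.27 log2 units in Cav1KO hearts and 0.31 in WT hearts. It fell by 0.56 log2 units, with an SE of 0.096 and a 95% interval of -0.77 to -0.34 (limma adjusted p = 0.0186). This makes 1 of the 8 members tested, beside 3.18% of all tested probe sets called in either direction, 0.822% called lower and 2.36% called higher. With no filter it was 1 of 14, beside 1.16% of all 45037. With intensities as deposited its limma adjusted p was 0.0559, with median centring 0.0684, and without Cav1KO 1, Cav1KO 2 or WT 3 it was 0.0774, 0.0706 and 0.0686, so the call depends on the scaling and on each of these hearts. In all, the hearts of both groups were fully apart, Cav1KO below WT, for 5 of the 14 member probe sets, beside 10.1% of all 45037.

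Among the 22519 tested, groups did not overlap for 26.3% in either direction and for 14% with Cav1KO lower. Of the 8 members tested these were Cidea and Slc36a2.

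**Figure D3:**
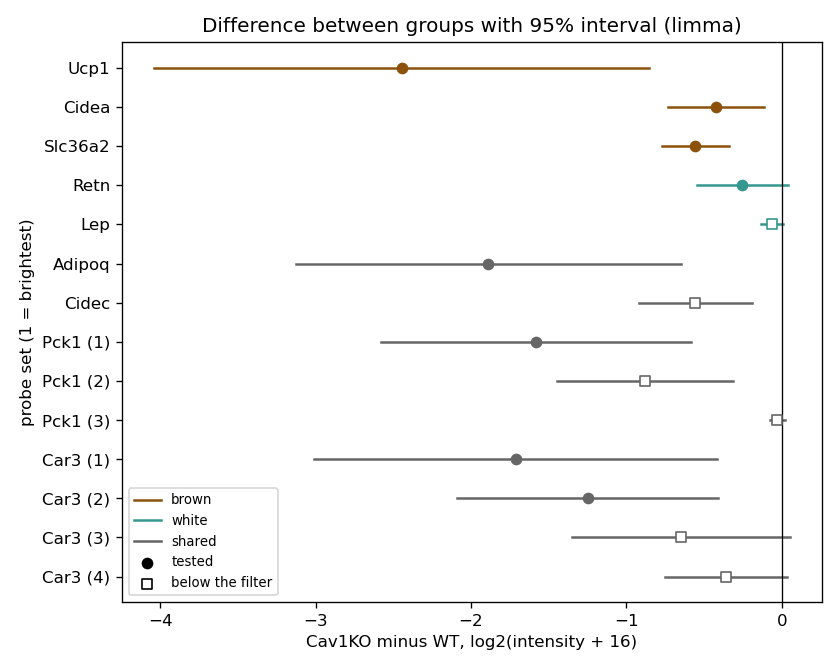
Difference between groups (Cav1KO minus WT, log2 units, x axis) with its 95% interval from limma for each of the 14 probe sets, coloured by class, with filled circles for those tested and open squares for those below the filter on low values. All points lie left of 0, and the widest intervals belong to Ucp1, Adipoq and the brightest probe set of Car3.

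Adipoq encodes adiponectin, a hormone that brown and white adipocytes both secrete. It stood at 65.1, 53.5 and 262 in Cav1KO hearts, against 225, 380 and 816 in WT hearts. Cav1KO 3 lay above WT 1, and the other Cav1KO hearts lay far below both. The difference was -1.89 (SE 0.55, limma adjusted p = 0.109) and did not pass. Without Cav1KO 3 it was -2.51 and passed (limma adjusted p = 0.0218), and without WT 3 it was -1.41 (limma adjusted p = 0.264).

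Car3, a carbonic anhydrase abundant in adipocytes and also present in slow skeletal muscle, followed Adipoq most closely. Its brightest probe set stood at 287, 247 and 1143 in Cav1KO hearts, against 767, 1508 and 2706 in WT hearts. After each profile was set to its own mean, Car3 and Adipoq differed by 0.11 log2 units per heart on average over the 6 hearts. The group difference of this probe set was -1.71 (SE 0.57, limma adjusted p = 0.150), and that of the second was -1.25 (SE 0.37, limma adjusted p = 0.113). Both passed without Cav1KO 3, at limma adjusted p = 0.0260 and 0.0439. The other probe sets, at -0.65 and -0.36, were below the filter. Of the fast skeletal muscle genes checked, Mylpf averaged 51.3 in Cav1KO hearts and 54.3 in WT hearts, with a range over the 6 hearts of 0.24. That list was drawn up for fast muscle, so it cannot speak to slow muscle, whose part in Car3 was not tested.

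Pck1 encodes the cytosolic enzyme that makes phosphoenolpyruvate, used in fat cells to make the glycerol of triglyceride. Its brightest probe set stood at 44.7, 44.0 and 84.3 in Cav1KO hearts, against 80.0, 237 and 385 in WT hearts. Cav1KO 3 and WT 1 were nearly level, with WT 2 and WT 3 well above all Cav1KO hearts. The difference was -1.58 (SE 0.44, limma adjusted p = 0.0983) and did not pass; without WT 1 it was -2.18 and passed (limma adjusted p = 0.0106). A second probe set, below the filter, stood at 10.8, 9.51 and 20.7 in Cav1KO hearts and at 20.9, 33.9 and 68.9 in WT hearts, a difference of -0.88. The third lay between 5.31 and 6.54 in all hearts, at the bottom of the arrays, and followed neither of the others.

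Cidec, which helps droplets of white and brown adipocytes grow by fusion, was dim. It stood at 14.4, 14.5 and 20.8 in Cav1KO hearts, against 21.2, 29.9 and 47.7 in WT hearts. The groups did not overlap, though Cav1KO 3 and WT 1 nearly met, and WT 3 was again highest. It was below the filter. Its difference of -0.56 (SE 0.16) is from the fit with no filter, where it did not pass (limma adjusted p = 0.167).

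Ucp1, Pck1 and Adipoq had the same order of WT hearts and the same high Cav1KO heart, and their promoter windows are shown for the 2 short motifs searched. The dimmer Cidec and Lep had that order too, and their windows, not shown, held neither motif. The windows are RefSeq's, on GRCm38.p6, from 250 bases before to 50 after the gene's start, 5′ to 3′ on the gene's strand. They lie at chr8:83290098-83290397 on the + strand (Ucp1), chr2:173152823-173153122 on the + strand (Pck1) and chr16:23146286-23146585 on the + strand (Adipoq). Capitals mark AGGTCA, the core letters that many nuclear receptors bind, and TGACG, the core letters of the cyclic AMP response element, either of them on either strand (CGTCA is TGACG on the other strand); no match overlapped another.
Ucp1: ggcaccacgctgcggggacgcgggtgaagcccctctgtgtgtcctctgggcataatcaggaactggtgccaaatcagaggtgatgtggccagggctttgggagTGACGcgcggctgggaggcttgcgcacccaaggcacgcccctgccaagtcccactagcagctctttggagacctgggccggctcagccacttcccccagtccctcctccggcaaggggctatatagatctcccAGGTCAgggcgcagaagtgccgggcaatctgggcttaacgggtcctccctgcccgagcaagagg
Pck1: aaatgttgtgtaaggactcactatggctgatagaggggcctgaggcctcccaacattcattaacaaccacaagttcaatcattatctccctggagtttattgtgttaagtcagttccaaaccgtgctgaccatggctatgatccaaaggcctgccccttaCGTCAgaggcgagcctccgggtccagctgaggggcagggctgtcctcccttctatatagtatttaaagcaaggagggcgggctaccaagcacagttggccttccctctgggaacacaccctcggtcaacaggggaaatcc
Adipoq: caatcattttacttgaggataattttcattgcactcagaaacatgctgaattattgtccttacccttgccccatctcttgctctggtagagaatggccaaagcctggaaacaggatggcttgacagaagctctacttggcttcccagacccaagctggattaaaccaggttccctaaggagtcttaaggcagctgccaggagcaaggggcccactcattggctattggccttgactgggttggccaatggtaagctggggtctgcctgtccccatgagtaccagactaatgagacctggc
The Ucp1 window held AGGTCA 14 bases and TGACG 147 bases before the start, and the Pck1 window held TGACG on the other strand, with its first base 90 bases before the start. The Adipoq window held neither. Of all 32851 windows of this length, 16.3% held AGGTCA and 20.8% held TGACG. Among the 7 windows of 6 members, including 2 for Cidec, 1 held AGGTCA and 2 held TGACG, too few to set against those shares. A match describes letters, not binding. The table used has no window for Cidea, Slc36a2 or Car3.

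Of the white fat hormones, Lep was dim and level and Retn varied moderately. Lep, which encodes leptin, stood at 9.695, 9.996 and 10.7 in Cav1KO hearts, against 10.8, 10.8 and 12.3 in WT hearts. The gene lay between percentile 10.8 and percentile 18.1 of its array in every heart, below the filter. Its difference, from the fit with no filter, was -0.062 (95% interval -0.13 to 0.0085). The groups did not overlap and WT 3 was highest, but all 6 values lay within the dim end of the arrays.

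Retn encodes resistin, which mouse white adipocytes secrete. It stood at 81.9, 91.0 and 123 in Cav1KO hearts, against 129, 105 and 125 in WT hearts. Cav1KO 3 lay among the WT hearts, and WT 1 rather than WT 3 was highest. Its range over the 6 hearts was 0.57 log2 units, at percentile 92.7 of all tested probe sets, and within Cav1KO hearts alone it was 0.51. The difference of -0.25 (SE 0.13, 95% interval -0.55 to 0.041) did not pass (limma adjusted p = 0.308).

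**Figure D4:**
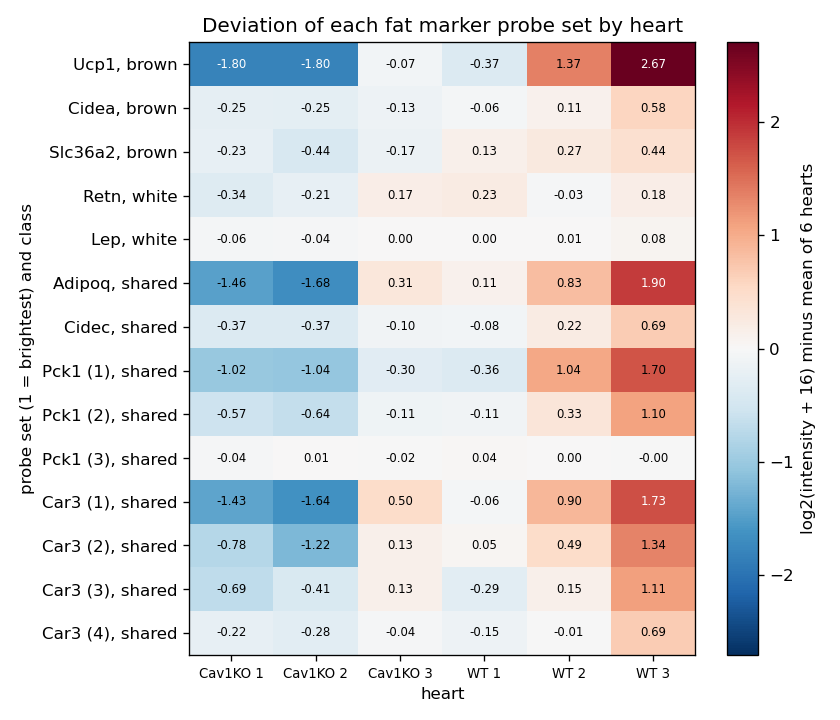
Deviation of each of the 14 probe sets from its own mean over the 6 hearts (log2 units, colour and printed values), hearts in columns with Cav1KO on the left and probe sets in rows by class, numbered from the brightest. Cav1KO 1 and Cav1KO 2 are blue and WT 2 and WT 3 red for Ucp1, Adipoq and the brightest probe sets of Car3 and Pck1, and the rows of Lep and the third Pck1 probe set are near 0.

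Averaged by class, with each gene as the mean of all its probe sets, brown and shared markers gave the hearts nearly the same profile. The brown mean, over 3 genes, lay at -0.76, -0.83 and -0.12 log2 units from the 6-heart mean in Cav1KO hearts, and at -0.10, 0.58 and 1.23 in WT hearts. The shared mean, over 4 genes, lay at -0.79, -0.87 and 0.064 in Cav1KO hearts, and at -0.058, 0.47 and 1.19 in WT hearts. Brown minus shared lay between -0.19 and 0.11 in all 6 hearts.

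The white mean, over Lep and Retn, stayed between -0.20 and 0.086 in Cav1KO hearts and between -0.014 and 0.13 in WT hearts. Brown minus white was -0.56, -0.71 and -0.21 in Cav1KO hearts and -0.22, 0.60 and 1.10 in WT hearts. The range over the 6 hearts was 2.06 for the brown, 2.06 for the shared and 0.33 for the white class. Each class mean weights its genes equally, and Ucp1 gives most of the brown range. The shared mean takes in dim probe sets of Pck1 and Car3. The third Pck1 probe set ranged over 0.081, against 2.74 for the brightest. Such probe sets hold the shared range down, so its closeness to the brown range depends on this averaging. Lep, at the dim end of the arrays, ranged over only 0.14 and so holds the white range down. Retn alone ranged over 0.57, against 0.83 for Cidea and 0.88 for Slc36a2. The class ranges therefore do not show by themselves that brown fat varied more than white fat. Within WT hearts the brown mean ranged over 1.33, more than the difference between group means of -1.14. Within Cav1KO hearts it ranged over 0.71. Leaving out WT 3, the difference was -0.81 for the brown, -0.74 for the shared and -0.13 for the white class.

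**Figure D5:**
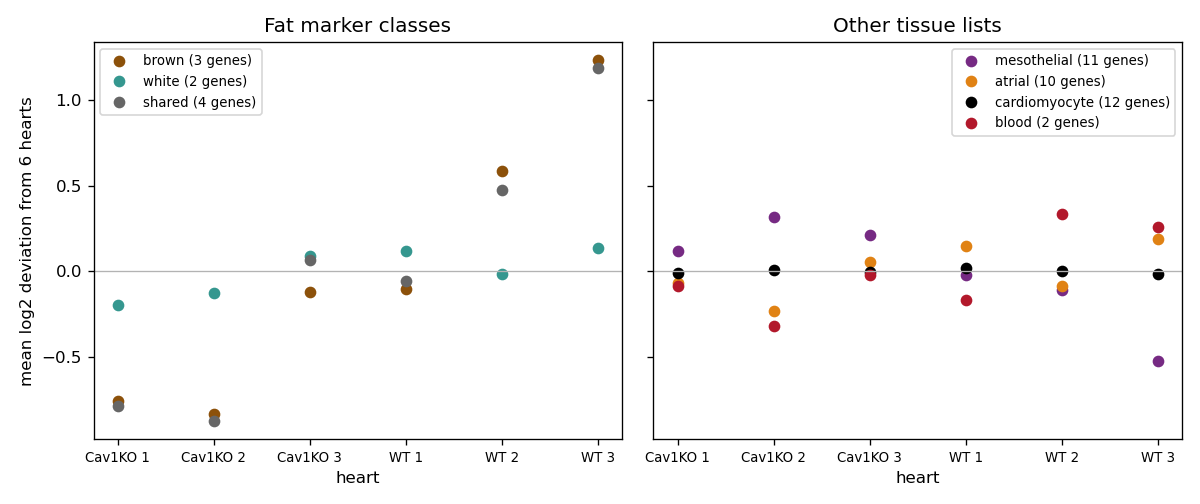
Mean deviation from the 6-heart mean (log2 units, y axis) for each heart, with Cav1KO on the left. The left panel shows the 3 fat marker classes, each gene as the mean of all its probe sets, and the right panel 4 lists of other tissues. Brown and shared points nearly coincide and reach 1.23 and 1.19 in WT 3, while white points lie between -0.20 and 0.13 and the mesothelial points are lowest in WT 3.

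Fat genes beyond the 10 markers were read by the brightest probe set of each gene, of which 4.04% were called over all 11486 genes tested. Of 23 tested genes of both fat types outside the 10 markers, 1 rose, 2 fell and 20 did not pass, and 18 differences were negative, with a median of -0.16 against -0.014 over the brightest probe sets of all genes tested. Pnpla2, a lipase that starts the release of fatty acids, fell by 0.29 (limma adjusted p = 0.0126). Dgat2, which makes triglyceride, fell by 0.25 (limma adjusted p = 0.0222). Fabp4, a fatty acid binding protein that endothelial cells also hold, rose by 0.15 (limma adjusted p = 0.0372). The count of 3 was 0 with median centring or without Cav1KO 1, and 1 as deposited, without a trend, without Cav1KO 2 or without WT 3.

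WT 3 was the highest heart for 14 of these 23. The widest in range was Scd1, a fatty acid desaturase, at 333, 289 and 713 in Cav1KO hearts and 557, 650 and 2148 in WT hearts (difference -1.14, limma adjusted p = 0.234). Fasn, fatty acid synthase, stood at 139, 152 and 186 in Cav1KO hearts and 218, 198 and 501 in WT hearts (difference -0.77, limma adjusted p = 0.187). Both were highest in WT 3. Cebpa, an adipocyte transcription factor, had a difference of -0.39, and Angptl4, an inhibitor of lipoprotein lipase, one of 0.45; neither passed.

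Of 15 further brown fat genes tested, only Cox7a1, a subunit of cytochrome oxidase also present in heart, passed, with a fall of 0.14 (limma adjusted p = 0.0452), and 14 did not, beside 4.04% of all genes called. The median was -0.10. The count was 0 with median centring, without a trend and when any 1 heart was left out. Ppara, a nuclear receptor of fat oxidation in heart and brown fat, had a difference of -0.31 (limma adjusted p = 0.0568), and Letmd1 had -0.088. Slc27a2 and Dio2, both below the filter, had -0.37 and 0.36. Among transcription factors of this list, chosen here after their values were seen, Prdm16 lay between percentile 72.3 and percentile 76.2 of its array and Ebf2 between percentile 62.5 and percentile 65.9. Lhx8 lay between percentile 5.54 and percentile 10.1, and Zic1 between percentile 4.10 and percentile 6.51.

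Of 12 further white fat genes, Npr3, the clearance receptor for natriuretic peptides, rose by 0.61 (limma adjusted p = 0.00676), none fell and 11 did not pass, beside 4.04% of all genes called, with a median of 0.060. Nnat had a difference of -0.50, Sncg 0.41, Psat1 0.30 and Sfrp5 0.059. The count of calls was 2 as deposited, with median centring or without WT 2, and the median was -0.017 without Cav1KO 3. WT 3 was the highest heart for 2 of the 12 white and 2 of the 15 brown genes tested. It was highest for 14 of the 23 shared ones and for 16.7% of all tested probe sets. Some brown genes tested were bright in every heart, such as Cox8b between percentile 99.81 and percentile 99.86. The brown count therefore cannot speak for brown fat alone. Of the brown genes below the filter, Slc27a2, Elovl3 and Otop1 were highest in WT 3, and Dio2, Bmp8b, Lhx8 and Zic1 were not.

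Genes other than the markers whose profile over the 6 hearts lay nearest to those of Adipoq and Ucp1 were sought among 99 genes with a range of at least 1 log2 unit. The measure was the mean absolute difference per heart after each profile was set to its own mean. Nearest to Adipoq were Scd1 at 0.41, Cdo1 at 0.43, Cyp2e1 at 0.50, Inmt at 0.60, Tmem45b at 0.60, Cenpf at 0.69, Pon1 at 0.71 and Fasn at 0.72. Nearest to Ucp1 were Cdo1 at 0.61, Scd1 at 0.73, Tmem45b at 0.82, Cyp2e1 at 0.83, Hddc3 at 0.90, Prkar2b at 0.92, Pon1 at 0.92 and Hp at 0.95. The 2 sets share 5 genes, and 1 of the 11 genes, Hddc3, passed the threshold between groups, beside 35 of the 99 candidates.

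Markers of the heart's outer lining had the opposite order of hearts at WT 3. Of 11 tested mesothelial and epicardial genes, 9 were lowest in WT 3, none had a negative difference, and 1 rose past the threshold: Lrrn4, by 1.05 (limma adjusted p = 0.0436), beside 4.04% of all genes called. No gene of the list passed with no filter, without a trend or without any 1 of the Cav1KO hearts, and 2 passed as deposited. Summed intensity of the 13 listed genes ran from 1611 to 1840 in Cav1KO hearts and from 896 to 1456 in WT hearts, with 896 in WT 3. Upk3b stood at 371, 426 and 433 in Cav1KO hearts and at 417, 367 and 153 in WT hearts, and neither it, Gpm6a, Aldh1a2 nor Upk1b passed. None of the list's markers was at 0, but neither was the third Pck1 probe set at the bottom of the arrays (5.31 to 6.54). Not being at 0 therefore does not show whether the lining was present. Upk3b lay between percentile 73.4 and percentile 88.2 of its array, above the lowest mean tested in every heart. Presence of the lining was not tested.

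Atrial genes were highest in WT 3 for 9 of 10. Their mean deviation from the 6-heart mean was -0.071, -0.23 and 0.051 in Cav1KO hearts, and 0.15, -0.085 and 0.19 in WT hearts. WT 1 thus came next to WT 3 and WT 2 lay low, whereas WT 2 lay above WT 1 for the brown and shared fat markers. By limma 0 of 10 passed and 2 had an unadjusted p under 0.05, with a median difference of -0.18. Their summed intensity ran from 30452 to 35366 in Cav1KO hearts and from 32295 to 38826 in WT hearts. Nppa, the atrial natriuretic peptide, averaged 12116 in Cav1KO hearts and 12826 in WT hearts, and Sln, an atrial calcium pump inhibitor, averaged 3916 in Cav1KO hearts and 4623 in WT hearts. Differences for Myl7 and Myl4 were -0.062 and -0.13. The red cell gene Alas2 averaged 976 in Cav1KO hearts and 1156 in WT hearts, with a difference of -0.24 that did not pass. Of 2 red cell genes tested, 0 passed in limma, and 1, Slc4a1 with a difference of -0.33, had an unadjusted p under 0.05. By limma 0 of 6 lymphoid genes passed, 0 of them at an unadjusted p under 0.05, and 0 of 8 large vessel genes passed, 3 of them at an unadjusted p under 0.05. The part that the outer lining, atrial tissue or blood has in the spread of the fat markers was not tested.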

How the data were processed

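Per the labels' protocols, Trizol RNA of 6 hearts was column-purified, and 2 ug of it was made into biotinylated cRNA for Affymetrix mouse arrays. The deposited table holds 1 linear intensity per probe set and array for 45101 probe sets. The submitters' processing notes name GCOS 1.4; summarisation, background correction and scaling are not given in the sources used here. Trimmed means (a share of 0.02 at each end) of the deposited intensities differed by 8.42%, above the limit of 5%, so intensities were quantile normalised (limma 3.58.1, R 4.3.3). The 64 control probe sets were left out. Knockout minus wild type was fitted on log2(intensity + 16) with lmFit and eBayes with a trend, over the upper 50% of probe sets by mean. Below that filter, differences are from a fit of all 45037. Arrays were no duplicates (Spearman's correlation 0.989 to 0.997).

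Symbols came from the platform annotation of the array: 34945 probe sets had 1 symbol, 932 several and 9160 none. Lists used the brightest probe set per gene. The members, lists and tests were chosen with earlier results of these data known. Named are all members, Cav1, list genes past the threshold with up to 4 further ones (the widest in range for fat, the brightest otherwise), and the 8 genes nearest in profile to Adipoq and to Ucp1. Of the airway and skeletal muscle lists, 2 and 3 genes were tested and 0 passed in limma, 0 also at an unadjusted p under 0.05. The fit was tested on simulated data. Alternatives changed scaling, pseudocount, filter and test, and left out each heart in turn.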

Additional observations from a re-analysis of the deposited data

How the results depend on the processing

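All 14 member differences stayed negative under the 16 alternatives. Of 224 member results, 209 kept their side of the threshold, 10 newly passed and 5, all of Slc36a2, no longer passed. The number of member probe sets called, 1 as reported, was 0 with intensities as deposited and 0 with median centring, and 6 with array weights (Ucp1, Cidea, Slc36a2, Adipoq, Pck1 and the second Car3 probe set), which gave WT 1 a weight of 0.399 and WT 3 one of 1.58. Leaving out 1 heart, it ranged from 0 (without Cav1KO 1, Cav1KO 2 or WT 3) to 4 (without Cav1KO 3), and was 3 without WT 1. Across the array 716 probe sets were called (531 higher, 185 lower, so 74.2% higher). It was 1172 with array weights and 414 without a trend, and 189 to 744 when 1 heart was left out: 189 without Cav1KO 1, 227 without Cav1KO 2, 298 without WT 3 and 471 without WT 1. The share of higher calls was 90.9% as deposited and 93.3% with median centring. Class differences moved by less than the spread between hearts under the alternatives run for them. No paired analysis was possible because the labels give replicate numbers to the WT hearts only, and the other number in each title differs for every heart. The cause of these changes was not tested.

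Lep, of the 2 white fat genes, was dim in every heart, which limits what can be said of white fat. Cidec and the third Pck1 probe set, of the shared class, were dim too. No detection calls were used here.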

Other observations

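WT 3, the heart with the highest fat marker values, also stood apart for an airway gene. Scgb1a1, a secreted protein of airway club cells, stood at 10.1, 9.45 and 10.8 in Cav1KO hearts, against 11.4, 11.6 and 513 in WT hearts. No other heart came near WT 3 for this gene. Other airway genes did not share a jump of this size. Sftpb, a surfactant protein, stood at 105, 88.0 and 99.1 in Cav1KO hearts and at 143, 99.3 and 108 in WT hearts. Sftpc stood at 30.3, 24.1 and 28.0 in Cav1KO hearts and at 33.0, 29.6 and 39.1 in WT hearts. Sftpc, Ager, Sftpd and Sftpa1 were also highest in WT 3, with ranges over the 6 hearts of 0.46, 0.20, 0.30 and 0.21. Sftpb and Cldn18 were not highest there. Scgb1a1 was below the filter on mean level and did not pass in the fit with no filter (limma adjusted p = 0.479).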
